A study of Mus musculus with 8 samples.

Results

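The Obox genes are a family of oocyte-specific homeobox genes, and their members were taken here as every gene whose symbol is Obox followed only by a number. Of 10891 genes in the input and HA tables together, 4 are members (Obox1, Obox3, Obox5 and Obox7). All 4 are among the 10530 genes of the input table, and 3 (Obox3, Obox5 and Obox7) are among the 8898 genes of the HA table and the 8537 genes that both tables hold. The numbered genes Obox2, Obox6 and Obox8, and the HA level of Obox1, were not analysed here.

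The study used RNA-Seq to compare the mRNA on ribosomes of MII oocytes (oocytes arrested at the second meiotic metaphase, ready for fertilization) between young mice (1 month) and old mice (12 to 15 months, retired breeders). All females were RiboTagF/F;Zp3-Cre on a C57BL/6 background, so that ribosomal protein Rpl22 carried an HA tag only after Cre, driven by the Zp3 promoter of growing oocytes, had acted. Females were primed with PMSG (5 IU), a gonadotropin that drives follicle growth, given hCG (10 IU), which triggers ovulation, after 48 h, and their oocytes were taken 13 h after the hCG injection. Each age had 2 pools of 200 oocytes, and each pool gave 2 libraries, the input (10% of the lysate, total mRNA) and the HA immunoprecipitate (ribosome-bound mRNA). The sources used here do not say how many females made up a pool, so the spread between pools may be smaller than that between animals.

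The libraries held 37817382 to 59688578 reads on genes in the HA table and 38276453 to 60052814 in the input table. In CPM (the authors' reads scaled to library size and to a TMM factor, which corrects for libraries of different composition), 3 reads were worth 0.0388 to 0.111 CPM in the HA and 0.0435 to 0.0788 CPM in the input libraries. Of 11 oocyte markers, 10 were in each table (all but Figla), with a summed level of 8569 to 9740 CPM in input. In HA their sum was 17600 CPM in old pool 2 and 10999 to 11950 CPM in the other pools. Of 12 cumulus and granulosa cell markers, 7 were in the input table, at a sum of 32.5 to 177 CPM, and 3 in the HA table. In HA their sum was lower in both old pools (83.8 and 81.7 CPM) than in both young pools (156 and 182 CPM), while in input the ages overlapped. The HA sum was mainly that of Cyp19a1, which had a mean of 116 CPM in HA. The part of these markers in the results below was not tested.

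Homeobox genes encode transcription factors that bind DNA through a fold of helices, the homeodomain, whose recognition helix lies in the major groove and reads the bases. The Obox genes form a cluster that has expanded in rodents, and they are known for their part in the activation of the zygotic genome after fertilization. Obox1, Obox2, Obox5 and Obox7 are known as transcripts that the oocyte supplies, and Obox3 as a gene that is switched on in the early embryo. The fully grown oocyte transcribes little, and the mRNAs it holds are called to ribosomes or degraded as meiosis resumes.

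All 7 numbered Obox genes of the annotation (GENCODE M21, build GRCm38) and 46 of 48 further copies, whose symbols carry a suffix, lie on chromosome 7. The cluster runs from 14331436 to 15839678. Obox7 is at chr7:14659496-14665996 on the plus strand and Obox5 at chr7:15750131-15759800 on the plus strand, and neither overlaps another annotated gene. Obox1, at chr7:15388948-15556866 on the plus strand, overlaps 9 other genes, and 100% of its exon bases lie within the span of another gene. Obox3, at chr7:15479825-15639902 on the minus strand, overlaps 7 others, with 9.50% of its exon bases inside them. Because reads were counted over whole genes and without strand, reads from these overlaps cannot be assigned to Obox1 or Obox3 with certainty.

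The members are close to each other in sequence, which bears on every level below, since a read that fits several copies cannot be given to 1 of them. The coding sequence of Obox7 matched that of Obox5 at 628 of 654 aligned bases (96.0%). Obox1 was 95.6% and Obox3 94.0% identical to Obox5 over the aligned bases. The part of the homeobox that encodes the DNA-reading helix is shown for each member to make this plain. It was located through the codons of the tryptophan, phenylalanine and asparagine that homeodomains share in this helix. Each line gives bases 412 to 441 of the longest coding sequence, 5′ to 3′, and capitals mark bases that differ from Obox5.
Obox5: atcaagatatggttcaagaacaaccgagct
Obox7: atcaagaAatggttcaagaacaaccgagct
Obox3: atcaagatCtggttcaagaacaaccgagct
Obox1: atTaagatCtggttcaagaacaaccgagct
The 30 bases are spliced from 2 coding exons in each gene, at chr7:15758073-15758562 (Obox5, plus strand), chr7:14664574-14665291 (Obox7, plus strand), chr7:15626302-15626801 (Obox3, minus strand) and chr7:15555699-15556174 (Obox1, plus strand). Obox7 and Obox3 each differ from Obox5 at 1 of the 30 bases, and Obox1 at 2.

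The share of each transcript that can be told from all others was counted in windows of 36 bases, the shortest read the authors kept, and in windows of 50 and 100 bases. Of the 36-base windows of the transcript with the longest coding sequence, 72.9% in Obox5, 63.2% in Obox7, 58.6% in Obox3 and 30.0% in Obox1 occurred in no other gene's transcript. With 100-base windows the shares were 99.9%, 97.3%, 84.1% and 59.1%. Obox5 and Obox7 shared windows with each other more than with any other gene (16.3% of the 36-base windows of Obox5 and 25.5% of those of Obox7). Obox1 shared 65.3% of its windows with Obox2, which lies almost wholly inside its span, and Obox3 shared 29.6% with the copy Obox3-ps3. The levels of Obox5 and Obox7 are thus better separated than those of Obox1 and Obox3.

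**Figure D1:**
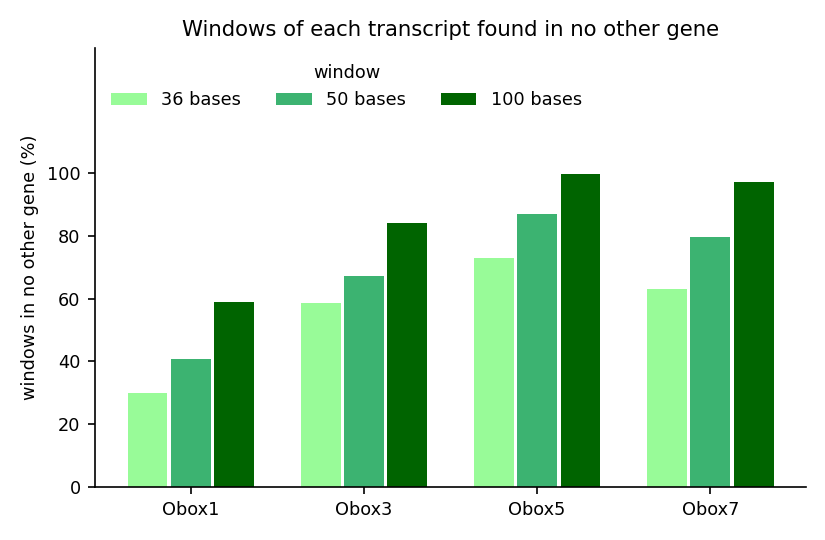
Share of windows (percent, bars from 0) of 36, 50 and 100 bases in the transcript of each member that occur in no transcript of another gene. Obox5 has the highest share and Obox1 the lowest at each window length, with 72.9% and 30.0% at 36 bases.

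Obox5 and Obox7 were abundant in every library, and Obox1 and Obox3 were low, at 0.0475 to 5.54 CPM. In input, Obox5 was at 409 and 604 CPM in old and 447 and 536 CPM in young pools, from 20412 to 30766 reads. These levels were above those of 95.5% to 97.3% of genes in the same library. Obox7 was at 164 and 179 CPM in old and 137 and 173 CPM in young input libraries, above 86.2% to 88.3% of genes. Per kb of exon, which allows levels of different genes to be compared, input Obox5 ranged from 191 to 283 CPM per kb and Obox7 from 85.8 to 111, so that the ranges did not overlap. Obox1 followed with 0.435 to 1.35 CPM per kb and Obox3 with 0.0692 to 0.896, and these 2 ranges overlapped. With 100% of Obox1 exon bases and 9.50% of those of Obox3 within other genes, reads from them may be missed or misplaced. These 2 levels are thus less certain than those of Obox5 and Obox7. As counted, Obox5 and Obox7 together made up 99.4% to 99.7% of the summed Obox level in input.

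The same order held in the HA libraries. Obox5 ranged from 321 to 1231 CPM per kb of exon, Obox7 from 179 to 230.1 and Obox3 from 0.0149 to 1.73, with no overlap between neighbours. Within a library the mean ratio of Obox5 to Obox7 per kb was 2.29 in input and 2.96 in HA, over 4 libraries each. The HA mean rests on old pool 2, where the ratio was 6.75, and was 1.69 without it. In the other 3 pools the ratio was lower in HA (1.53, 1.79 and 1.76) than in the input of the same pool (1.88, 2.44 and 2.33).

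**Figure D2:**
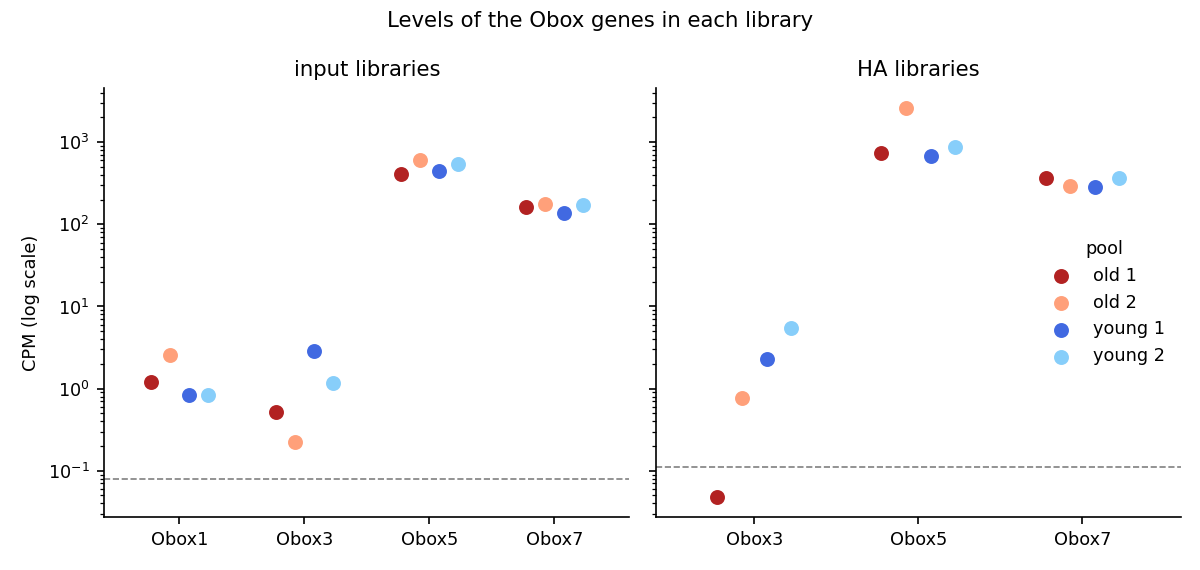
CPM (log scale) of each Obox gene in the 4 input (left) and 4 HA (right) libraries, with 1 point per library coloured by pool; the dashed line is the level of 3 reads in the shallowest library. Obox5 and Obox7 lie between 137 and 2630 CPM, and Obox1 and Obox3 lie between 0.0475 and 5.54 CPM.

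No Obox gene passed an adjusted p of 0.05 between old and young oocytes in total mRNA (limma on log2(CPM + 1), 0 of 4; 0.00950% of 10530 genes did). None passed an unadjusted p of 0.05 either, against 6.18% of all genes, and the likelihood ratio and quasi-likelihood tests of edgeR likewise called none at an adjusted p of 0.05. Input Obox5 was 506 ± 138 CPM in old and 492 ± 63.6 CPM in young pools (mean ± SD, n = 2), a log2 difference (old minus young) of 0.02 (SE 0.28, adjusted p = 0.993, limma). Input Obox7 was 171 ± 10.6 CPM in old and 155 ± 25.2 CPM in young pools, a log2 difference of 0.15 (SE 0.31, adjusted p = 0.976, limma). For both genes the old and young values overlapped, and the difference was smaller than its error and turned its sign, to -0.17 and -0.04, with libraries rescaled to the same sum. With 2 pools per age an exact permutation test cannot reach 0.05, so p-values are from limma fitted across all genes of a table.

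The summed Obox level in input was 574 and 785 CPM in old and 588 and 712 CPM in young pools. The sum therefore overlapped between ages.

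In the HA libraries Obox5 was the member that varied most in CPM. It was at 739 and 2630 CPM in the old pools and at 685 and 863 CPM in the young pools. Old pool 2 was above the other 3 libraries, while old pool 1 lay between the young pools. The mean was 1685 ± 1337 CPM in old and 774 ± 126 CPM in young pools (n = 2), and the log2 difference of 0.86 (SE 0.61) did not pass the test (adjusted p = 0.643, limma). The difference was 0.22 after rescaling to equal sums and 0.13 with quantile normalization, so its size also depends on how the libraries are scaled.

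The result for Obox5 also turned on which old pool was used. Without old pool 1, the log2 difference was 1.77 (SE 0.43) and passed with an adjusted p of 0.0342 (limma), as did 4.42% of all genes in that fit. Without old pool 2, the log2 difference was -0.06. In these fits 1 old pool stands alone and is taken to vary as the young pools do. With the young pools left out in turn it was 0.69 and 1.02, and neither passed.

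Obox7 did not show this pattern. Its HA level was 363 and 292 CPM in old and 286 and 369 CPM in young pools, a mean of 328 ± 50.2 CPM in old and 328 ± 58.2 CPM in young. The log2 difference was 0.00 (SE 0.43, adjusted p = 0.999, limma), or -0.64 after rescaling to equal sums, and the groups overlapped. In old pool 2, where Obox5 was high, Obox7 was at its second lowest HA level.

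**Figure D3:**
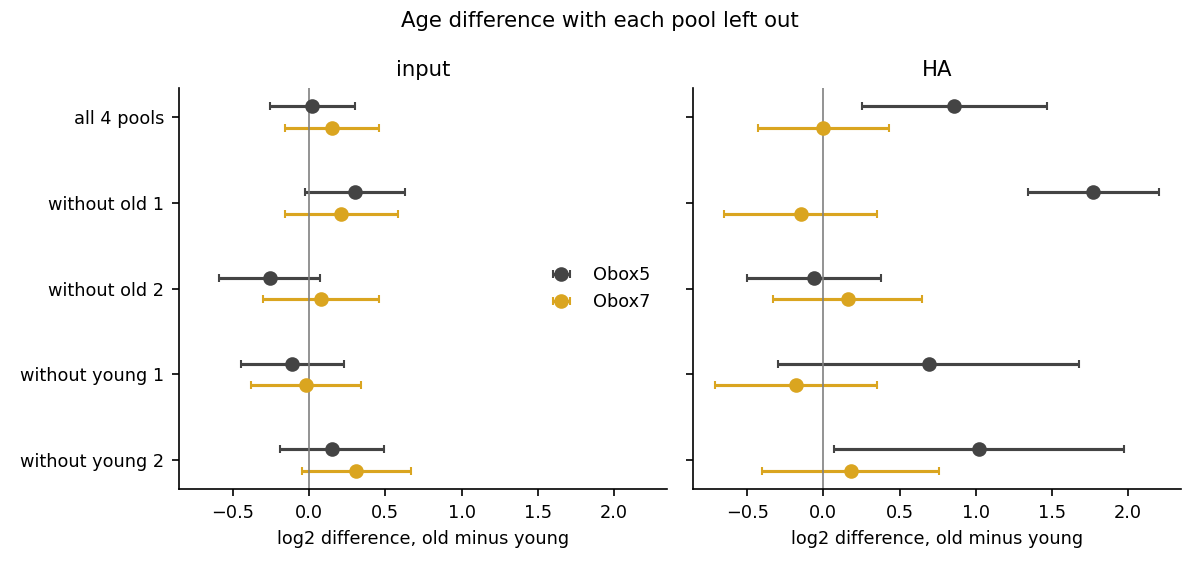
Log2 difference (old minus young, limma, bars ± 1 SE) of Obox5 and Obox7 in input (left) and HA (right), with all 4 pools and with each pool left out. Obox5 in HA moves from 1.77 without old pool 1 to -0.06 without old pool 2, whereas Obox7 in HA stays between -0.18 and 0.18.

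The ratio of Obox5 to Obox7 within a library does not change when all genes of the library are scaled by a common factor, though quantile normalization can change it. In input it was 2.50 and 3.38 in old and 3.25 and 3.10 in young pools. In HA it was 2.04 in old pool 1, 9.00 in old pool 2, and 2.39 and 2.34 in the young pools. Leaving out old pool 2, the HA ratio was 2.26 ± 0.193 (mean ± SD, n = 3). The HA library of old pool 2 thus stood apart from the other 7 libraries in the balance of the 2 genes, while the input ratio of the same pool (3.38) was close to those of the young pools.

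That library also differed from the others in general. It had the fewest reads on genes of the HA libraries (37817382), the lowest TMM factor (0.715, against 0.896 in old pool 1 and 1.20 and 1.30 in young), and no reads for 4.11% of the genes in the table. Obox5 was 3.56 times as high in HA of old pool 2 as of old pool 1. This ratio was larger than for 79.6% of 8341 genes with reads in both old pools. It was larger than for 89.6% of the 1905 of them with a mean of at least 100 CPM. For Obox7 the ratio of the old pools was 0.804, above that of 45.3% of the 8341 genes and 27.2% of the 1905. The part of these library differences in the Obox5 value was not tested.

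**Figure D4:**
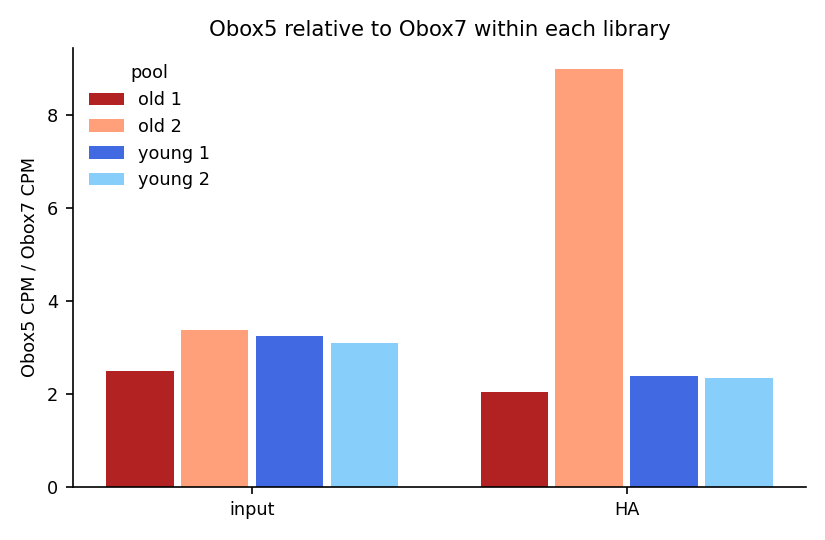
Ratio of Obox5 CPM to Obox7 CPM within each of the 8 libraries (bars from 0, coloured by pool). The ratio is 9.00 in the HA library of old pool 2 and between 2.04 and 3.38 in the other 7.

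Obox3 was lower in both old pools in HA and in input, on very few reads. Its HA level was 0.0475 and 0.776 CPM in old and 2.27 and 5.54 CPM in young pools. These came from 2 and 21 reads in old and 176 and 314 reads in young libraries, and the exact Poisson 95% intervals were 0.242 to 7.22, 13.0 to 32.1, 151 to 204 and 280.2 to 351 reads. Both old pools were below both young pools, and old pool 1 was under the floor of 3 reads. Every gene kept in HA had 1 CPM before TMM scaling in at least 2 libraries. Obox3 reached this only in the young pools, so that its direction was set by this minimum. The log2 difference was -1.76 (SE 0.78, adjusted p = 0.365, limma), so that it did not pass the test. It depended on the setting, from -0.29 with quantile normalization to -3.35 with a pseudocount of 0.1 CPM.

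Total Obox3 mRNA was at 0.515 and 0.221 CPM in old and 2.86 and 1.16 CPM in young input libraries (28, 11, 197 and 44 reads). The old pools were below the young ones, with a log2 difference of -1.09 (SE 0.75, adjusted p = 0.851, limma). Here too Obox3 reached 1 CPM only in the young pools, so this direction is no further support for the one in HA. Obox1, measured in input only, went the other way, at 1.19 and 2.57 CPM in old and 0.827 and 0.841 CPM in young pools (65, 128, 57 and 32 reads). It reached 1 CPM only in the old pools, so that its direction was likewise set by the minimum. Its log2 difference was 0.61 (SE 0.78, adjusted p = 0.940, limma).

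Old and young values did not overlap for 2 of 4 members in input and 1 of 3 in HA. Over all genes, this held for 35.3% in input and 41.9% in HA, so the members' counts are near the background. The members concerned were Obox1 and Obox3 in input and Obox3 in HA. Each reached 1 CPM only in the age where it was higher, so that these counts were set by the minimum and show nothing about age. No member passed the test in HA (limma, adjusted p, 0 of 3; 0% of all genes; unadjusted p, 0 of 3; 14.7% of all genes), and neither edgeR test nor DESeq2 called a member at an adjusted p of 0.05.

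The copies of Obox3 whose symbols carry a suffix are not members, but their reads can be shared with it. Obox3-ps8 was at 2.71 and 6.14 CPM in old and 3.58 and 3.63 CPM in young HA libraries, and Obox3-ps1 at 2.19, 4.14, 2.05 and 1.85 CPM in the same order. Obox3-ps4 was at 1.45, 8.13, 13.0 and 1.39 CPM. None of the 3 copies was lower in both old pools than in both young pools. The copies that shared most 36-base windows with Obox3 (Obox3-ps3, Obox3-ps2, Obox3-ps5 and Obox3-ps6) are not among these 3. Obox3 itself was kept only through its young pools, as stated above. The 3 copies therefore cannot show whether Obox3 differs from the copies that share its reads.

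Translation efficiency (TE), the HA CPM over the input CPM of a pool, was above 1 for Obox5 and Obox7 in all 4 pools. The scales of HA and input were set separately, so a TE is read here against other genes of its pool, whose median was 0.572 to 0.729. Obox5 had a TE of 1.81 and 4.35 in old and 1.53 and 1.61 in young pools, above 77.3% to 90.0% of genes in the same pool. Obox7 had a TE of 2.22 and 1.64 in old and 2.08 and 2.13 in young pools, above 72.0% to 91.1% of genes. Both were thus above the middle gene of the pool at either age.

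The age difference in TE did not pass the test for any member (limma, adjusted p, 0 of 3; 0% of 8537 genes; unadjusted p, 0 of 3; 6.56% of all genes), nor with edgeR. Obox5 had a TE of 3.08 ± 1.80 in old and 1.57 ± 0.0524 in young pools (n = 2), a log2 difference of 0.84 (SE 0.78, adjusted p = 0.858, limma). This difference was 0.20 without old pool 2 and 1.47 without old pool 1. Rescaling to the same sum gave 0.38 and quantile normalization 0.26. Both old values were above both young values, as for 39.5% of genes in either direction, and 1.81 in old pool 1 was close to the young values. Obox7 had a TE of 1.93 ± 0.413 in old and 2.11 ± 0.0327 in young pools, a log2 difference of -0.14 (SE 0.69, adjusted p = 0.972, limma). It was 0.05 with scaling by the median log2 ratio and -0.64 with quantile normalization. The TE uses the same HA libraries as the comparison above and is not a separate measurement of the high Obox5 value.

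Obox3 had no stable TE. It was 0.0924 in old pool 1, with an exact 95% interval of 0.0107 to 0.366 for counting error alone, and 3.52 in old pool 2 (1.62 to 8.08). In the young pools it was 0.796 (0.646 to 0.980) and 4.79 (3.48 to 6.72). Pools of the same age thus differed beyond counting error.

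**Figure D5:**
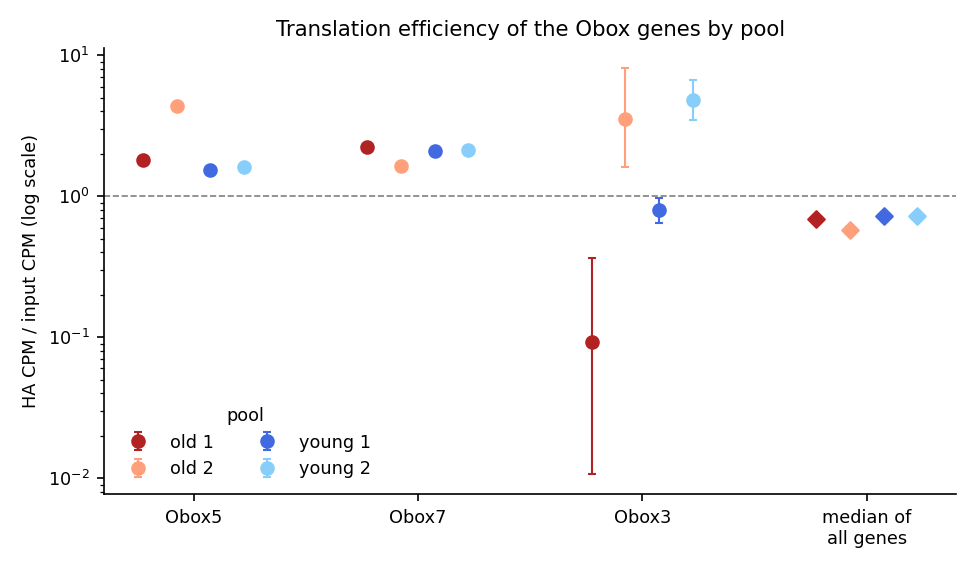
TE (HA CPM over input CPM, log scale) of Obox5, Obox7 and Obox3 in each pool, with exact 95% intervals for counting error, beside the median of 8537 genes (diamonds). Obox5 and Obox7 lie between 1.53 and 4.35, above the medians of 0.572 to 0.729, and Obox3 spreads from 0.0924 to 4.79.

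Other homeobox genes of the oocyte were compared with the Obox family through a list of 44 genes. Of these, 26 were measured in input and 20 in HA, and none passed an adjusted p of 0.05 in input, HA or TE (limma). At an unadjusted p of 0.05, 1 was higher and 1 lower in input, 1 was higher and 2 lower in HA, and 1 was higher in TE, beside 6.18%, 14.7% and 6.56% of all genes in either direction, so that 3 of 20 in HA is near the background. The median log2 difference was 0.11 in input (all genes -0.03; -0.08 for the list with libraries rescaled to the same sum), -0.63 in HA (all genes -0.14) and -0.95 in TE (all genes -0.10). The HA median of the list was 0.18 without old pool 2 so its direction turned with that pool, and -0.06 without old pool 1. The TE median was -0.23 without old pool 2 and -0.12 without young pool 2, and -0.62 and -0.53 without old pool 1 and young pool 1.

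The 2 genes of this list with the smallest p in HA were Pou2f2 and Pbx3. Pou2f2, which encodes a POU-domain factor, was at 546 and 571 CPM in old and 68.3 and 36.4 CPM in young HA libraries, and the log2 difference was 3.46 (SE 0.55, adjusted p = 0.297, limma). Pbx3, which encodes a partner of Hox proteins, was at 0.0950 and 0.0370 CPM in old (4 reads and 1 read) and 6.86 and 6.01 CPM in young HA libraries, and the log2 difference was -2.80 (SE 0.79, adjusted p = 0.297, limma). Old and young values did not overlap for either gene, but neither passed the test over all genes. Pbx3 reached 1 CPM only in the young HA libraries, so that its direction was set by the minimum for a gene to be kept.

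The Obox members and this list together had 23 genes measured in HA and 30 in input. Among these, by mean CPM, Obox5 stood first in HA, at 1229 CPM, and came after Meis2, Nobox and Zfhx3 in input, at 499 CPM. Meis2, which encodes a TALE-class homeobox factor, was at 1039 CPM in input and 392 CPM in HA. Nobox, a homeobox factor needed for early follicles, was at 701 CPM in input and 261 CPM in HA. These are CPM that are not divided by length, so the place of Obox5 among these genes is a description of reads, and the HA mean includes the high value of old pool 2.

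Maternal factors of zygotic genome activation, the process in which the Obox proteins act, were taken as a list of 31 genes. They gave 27 entries in input and 25 in HA, and none passed an adjusted p of 0.05 in input, HA or TE (limma). Zscan4d stood as separate entries in input (log2 differences -0.65 and 1.18), each of which was counted. At an unadjusted p of 0.05, 1 was lower in input, 1 was higher and 2 lower in HA, and 1 was lower in TE, and 3 of 25 in HA is no more than the share of all genes (14.7% in HA, 6.18% in input and 6.56% in TE). The median log2 difference was 0.17 in input, 0.23 in HA and 0.14 in TE, and it turned to -0.02, -0.41 and -0.27 with libraries rescaled to the same sum. Nfyb, which encodes a subunit of the CCAAT-binding factor NF-Y, was at 0.0475 and 0.0370 CPM in old (2 reads and 1 read) and 12.4 and 4.71 CPM in young HA libraries. The log2 difference was -3.07 (SE 0.90, adjusted p = 0.297, limma). Nfyb too reached 1 CPM only in the young HA libraries, so its direction was set by the minimum for a gene to be kept.

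The genes whose pattern was most like that of Obox5 over the 8 libraries were Cep192 (Pearson's r = 0.995), Usp47 (0.984), Nhsl1 (0.983), Nf1 (0.983) and Cab39 (0.982), among 5304 genes with a mean of at least 10 CPM in each table. The values were log2(CPM + 1), centred within HA and within input, and the 8 points share 4 pools and the scaling of 2 tables. Cep192 was at 321 and 1561 CPM in old and 328 and 374 CPM in young HA libraries, so that it too was high in old pool 2 alone. Usp47 was at 126, 657, 127 and 135 CPM in the same order. Obox7 had a correlation of -0.193 with Obox5 by the same measure. These genes were chosen for their likeness over the same libraries, so that a high value in old pool 2 is part of the choice.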

How the data were processed

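RNA-Seq of 8 libraries (HA and input of 4 pools of MII oocytes) was used. The authors trimmed reads with Trimmomatic 0.36, aligned them to GRCm38 with HISAT2 and counted them per gene with HTSeq and GENCODE M11. How reads with several alignments were counted is not given in the sources used here. The deposited signal values are CPM after TMM scaling, set separately for HA and input. The Methods state a minimum of 10 CPM in 2 or more libraries, but every gene of both tables had 1 CPM before TMM scaling in at least 2 libraries, and 6775 input and 5642 HA genes had 10 CPM. Each value was a whole multiple of 1 read (100% of values, tolerance 0.01 read), so that reads were recovered. Columns left out, 0.

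Old and young were compared with limma (trend, two-sided) on log2(CPM + 1), Benjamini-Hochberg adjusted over all genes. This scale understates changes of low genes. TE was compared as the difference of the log2 values of a pool. The Obox genes and all lists were chosen with earlier results of these data known. The text names every member, the 2 genes with the smallest p in HA of each list if none passed (1 of these is not reported here), and the 5 genes most like the Obox gene with the highest mean input CPM. Gene IDs of 4 of 4 members matched GENCODE M21, whose transcripts were searched for shared windows on both strands. Alternatives were other pseudocounts (0.1 and 5 CPM), filters, scalings, edgeR and DESeq2 on reads, a replicate block and leaving out each pool. On simulated data with 200 genes changed by 16-fold, limma called 75.0% of them in input, 34.0% in HA and 0% in TE. Intervals cover counting error only, since reads carry no molecular identifiers. Python 3.11.15 (pandas 2.3.3, Biopython 1.88, numpy 2.4.6, matplotlib 3.10.9, scipy 1.17.1) and R 4.3.3 (DESeq2 1.42.0, limma 3.58.1, edgeR 4.0.16) were used.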

Additional observations from a re-analysis of the deposited data

How the results depend on the processing

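With 2 pools per age, limma called no TE difference of 16-fold on simulated data, 34.0% of such differences in HA and 75.0% in input. It can thus miss large changes, most of all in TE. The simulation drew HA and input of a pool separately and changed genes of any level, so these shares are not specific to Obox5 or Obox7. Obox1 and Obox3 rest on few reads and have no value with a filter of 10 CPM. DESeq2 gave no adjusted p for them in input and for Obox3 in TE. Rescaling to the same sum moved the median log2 difference of all genes by -0.17 in input, -0.54 in HA and -0.37 in TE, and the median log2 ratio moved it by 0.18 in HA and 0.17 in TE.

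Of 10 member differences, Obox1 and Obox3 in input, Obox3 in HA and Obox5 in TE kept their direction under every alternative run. For Obox1 and Obox3 the direction was set by the minimum of 1 CPM in 2 libraries, so that keeping it is no support. Obox5 in TE was 0.38 with the same sum, 0.26 with quantile normalization and 0.20 to 1.47 with a pool left out. Obox5 in input was -0.17 with the same sum, -0.13 with quantile normalization and -0.26 to 0.30 with a pool left out. Obox7 in input was -0.04 with the same sum and -0.02 to 0.31 with a pool left out. Obox7 in HA was -0.64 with the same sum, -0.61 with quantile normalization and -0.18 to 0.18 with a pool left out. Obox5 in HA was 0.22 with the same sum, 0.13 with quantile normalization, 1.37 with DESeq2 and -0.06 to 1.77 with a pool left out. Obox3 in HA was -0.29 with quantile normalization, -0.70 and -3.35 with pseudocounts of 5 and 0.1 CPM and -3.25 with edgeR. Obox3 in TE was 0.18 with quantile normalization and -1.59 to 0.24 with a pool left out. Obox7 in TE was -0.59 with the same sum, -0.64 with quantile normalization, 0.05 with the median log2 ratio, 0.01 with DESeq2 and -0.36 to 0.08 with a pool left out. Members at an adjusted p of 0.05 in HA were 0 to 1 with a pool left out (0% to 7.13% of all genes), and at an unadjusted p 0 to 1 (11.9% to 26.1% of all genes). The cause of these shifts was not tested.

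Replicate numbers of old and young pools share only a number. Same-numbered deviations correlated at 0.0269 in input, 0.0786 in HA and 0.0108 in TE across genes. With a replicate block, 1 member passed an unadjusted p of 0.05 in HA (Obox5, log2 difference 0.86, adjusted p = 0.315, limma), against 15.5% of all genes, and genes called at an adjusted p rose from 0 to 9 in HA. With the same sum, 1 member also passed an unadjusted p in HA (Obox3), against 15.6% of all genes.

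The summed HA level was 0.86 higher in old on the log2 scale, -0.01 without Obox5, 0.16 with the same sum, 1.10 with the median log2 ratio and 0.00 to 1.40 with a pool left out. Lengths of the coding transcript or the gene span, chosen after seeing the data, gave a ratio of Obox5 to Obox7 of 2.47 and 2.06 in input and of 3.18 and 2.65 in HA, and leaving out a pool gave 1.69 to 3.43 in HA.

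The homeobox list had an input median of -0.08 with the same sum and 0.03 to 0.25 with a pool left out. Its HA median was -0.25 with a pseudocount of 5 CPM, -0.27 with the filter, -1.18 with the same sum, -0.01 with either edgeR test, 0.17 with DESeq2 and -0.44 to 0.18 with a pool left out. Its TE median was -0.53, -0.25 and -1.32 under the same first 3 settings, -0.50 with quantile normalization, -0.18 with edgeR, -0.01 with DESeq2 and -0.62 to -0.12 with a pool left out. Genes of this list at an adjusted p of 0.05 were 1 with DESeq2 in input, 1 with edgeR's likelihood ratio test, 3 with DESeq2, 1 with the replicate block and 0 to 2 with a pool left out in HA, and 1 with edgeR's likelihood ratio test or DESeq2 in TE. The list of activation factors had medians with the same sum of -0.02 in input, -0.41 in HA and -0.27 in TE, with quantile normalization of -0.40 in HA and -0.43 in TE, and of -0.27 to 0.12 in TE with a pool left out. Its genes at an adjusted p were 1 with edgeR's likelihood ratio test and with DESeq2 in HA, 1 with DESeq2 in TE and 0 to 2 with a pool left out in HA.

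Genes called in the whole table differed by over 1.5 times between tests, with 1 in input, 0 in HA and 0 in TE by limma, 50, 295 and 196 by edgeR's likelihood ratio test, 0, 0 and 0 by its quasi-likelihood test, and 114, 508 and 370 by DESeq2.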
